A study of Mus musculus with 6 samples.

Results

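Interleukins are secreted proteins that carry signals between leukocytes, epithelial cells and stromal cells, and each acts through a receptor of 1 or more membrane chains. The genes of these ligands, of their receptor chains and of a few secreted inhibitors were compared between medullary thymic epithelial cells of wild-type mice and of mice labelled as having both copies of Aire disrupted. Aire is a transcriptional regulator that allows these cells to transcribe many genes of peripheral tissues. A probe set belonged to the group when the platform annotation gave it a single symbol made of Il followed by a digit. The 9 probe sets of Il3, Il4, Il5, Il9 and Il13 were left out. That left 46 of the 12488 probe sets on the array, for 40 of the 8251 genes with a single-gene probe set. They comprised 14 ligands (15 probe sets), 23 receptor chains (28 probe sets) and 3 secreted inhibitors (3 probe sets), and 6 of the genes had more than 1 probe set.

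Wild-type cells and cells labelled Aire-deficient were measured on 3 arrays each, all from mice of a mixed B6/129 F2 background, 3 to 5 weeks old. Every array held RNA from the thymi of 5 animals of both sexes, pooled before sorting, so the spread between arrays is one between pools. The sort took cells without CD45, the common leukocyte antigen, positive for the epithelial marker G8.8, intermediate for CDR1 staining and high for B7.1, a costimulatory molecule. RNA was amplified in 2 rounds with T7 polymerase, which favours the 3' end of transcripts. Aire itself gave 59.9, 96.4 and 138 in wild type and 202, 297 and 211 in the group with the gene disrupted, higher in each of the latter arrays. The log2 difference was 1.33 (adjusted p = 0.0873 in limma, or 0.0183 in a fit blocked on the replicate number). The disrupted stretch of the gene, and whether the probe set lies outside it, were not given in the sources used here. The Aire signal thus does not check the labels, and it goes against the direction that a loss of the transcript would give. The groups are therefore named as their labels name them, and each direction below rests on those labels. In bulk samples of this kind, fewer cells of a type and less RNA per cell cannot be told apart.

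Interleukins fall into families that share receptor chains. Those of the common gamma chain family, such as interleukin 2, interleukin 7 and interleukin 15, support lymphocyte survival, and in the thymus interleukin 7 is needed for thymocyte growth. Interleukin 12 is a pair of chains encoded by separate genes, Il12a and Il12b, and drives interferon production by T cells and natural killer cells. In the interleukin 1 family, interleukin 1 itself signals inflammation through Il1r1 and Il1rap, against which a receptor antagonist (Il1rn) and a decoy receptor (Il1r2) act.

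Signals are given in arbitrary units after quantile normalization. Those under 1.8 were raised to this floor, and a gene was tested where it lay above 5.53, the dim limit, on at least 3 of the 6 arrays. Of the 40 genes, 24 were tested, namely 6 ligands, 15 receptors and all 3 inhibitors, and 16 were too dim. Beta-actin signal at the 3' end was 95.8 times that at the 5' end on wild-type array 2 and 4.38 to 13.8 times on the other 5. Among 14 granulocyte markers on the array, 6 of 10 tested fell in limma, beside 1.33% of all tested genes. Of these, Ly6g, Ngp and Ltf lay under the dim limit on all Aire-deficient arrays. They passed the filter through wild type alone and had to differ, so their calls are no support. The summed signal of the 14 markers was 363 to 898 in wild type and 142 to 162 in cells labelled Aire-deficient. The summed signal of 12 markers of medullary epithelium was 3651 to 4696 and 5395 to 6145. Most of it was the signal of H2-Aa, H2-Ab1, Cd74 and Ctss, so the sum says little about the other markers. The keratins Krt5 and Krt14 lay under the dim limit on all 6 arrays. Epcam, the antigen of G8.8, gave 234, 251 and 130 in wild type and 102, 79.8 and 86.9 in cells labelled Aire-deficient (limma adjusted p = 0.11). A second fit took the replicate number as a block, since arrays of the same number deviated together, and there Epcam fell (0.0295). Epcam was the 1 of 10 tested medullary markers below 0 on the log2 scale, and 9 were above it. Aire, as given above, and H2-Ab1, a chain of MHC class II, rose with the block. H2-Ab1 gave 779.7, 527.1 and 676.3 against 1393, 1119 and 929 (limma adjusted p = 0.149, or 0.0485 with the block). The part of these differences in the results below was not tested.

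The comparison asked which interleukin transcripts differed between the groups as labelled. Among the ligands, Il12a and Il15 were higher in cells labelled Aire-deficient. Il12b was lower there, under the dim limit on all 3 arrays. In the limma fit, with Benjamini-Hochberg adjustment over 5950 genes and a threshold of 0.05, Il12a rose and no other member passed. Thus 1 of 6 tested ligands was called higher, where 0.387% of all tested genes were, and 0 were called lower, where 1.33% of all genes were. In the blocked fit, Il12a and Il15 rose among the ligands, Il1rn rose among the inhibitors, and 0 of 15 receptors passed in either direction. That fit called 2.59% of all tested genes higher and 3.70% lower. Il12b was called lower there, but it passed the filter only through the group where it is high, so it had to differ and its call is no support. At an unadjusted p under 0.05, without the block, lay 3 ligands, 3 receptors and 1 inhibitor, 7 of the 24 tested members, beside 15.1% of all tested genes.

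Il12a and Il12b encode the p35 and p40 chains of interleukin 12. The p35 chain also pairs with the product of Ebi3, and the p40 chain with that of another gene to form interleukin 23. The stretches of 250 bases before the annotated transcript starts are shown because the signals of the 2 chains of this cytokine lay in opposite directions. They are taken from RefSeq (GRCm38.p6, plus strand), where 31 of the 40 member genes had an entry. For Il12a they lie at chr3:68690394-68690643 and chr3:68691174-68691423, and for Il12b at chr11:44399813-44400062. Capitals mark the sequence TATATA.

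Il12a, upstream start: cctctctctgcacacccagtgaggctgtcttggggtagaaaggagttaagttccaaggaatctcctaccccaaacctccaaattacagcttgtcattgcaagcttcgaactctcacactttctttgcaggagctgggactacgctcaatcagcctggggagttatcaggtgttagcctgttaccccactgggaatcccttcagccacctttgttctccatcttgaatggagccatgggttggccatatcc

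Il12a, downstream start: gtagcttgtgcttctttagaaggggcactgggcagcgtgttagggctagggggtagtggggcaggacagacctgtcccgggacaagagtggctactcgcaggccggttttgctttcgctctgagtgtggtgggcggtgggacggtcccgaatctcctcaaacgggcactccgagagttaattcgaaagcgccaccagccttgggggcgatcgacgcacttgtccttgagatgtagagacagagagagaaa

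Il12b: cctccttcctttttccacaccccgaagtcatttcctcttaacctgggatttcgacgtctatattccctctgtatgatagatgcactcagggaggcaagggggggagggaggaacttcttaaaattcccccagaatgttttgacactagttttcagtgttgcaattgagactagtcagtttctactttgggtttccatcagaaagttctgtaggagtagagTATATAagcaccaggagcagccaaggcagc

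Among the motifs below, each was searched for on both strands of these stretches, and overlaps between motifs were allowed. The Il12b stretch held TATATA, a form of the TATA box, beginning 30 bases before the start. At any position and on either strand, TATATA occurs in 5.25% of 32851 promoter stretches of this length. This form was added to the search after the sequences had been seen. None of the 3 stretches held TTCNNNGAA, a form of the palindrome of STAT factors (7.02% of all stretches). None held TATAAA (12.4%), TGANTCA, the AP-1 site (6.75%), or CCAAT (33.8%). Nor did any hold GGGRNNYYCC, a form of the NF-kB site (7.25%), where R is A or G, Y is C or T and N is any base. Other forms of the NF-kB site, and STAT palindromes with another number of bases between TTC and GAA, were not searched for. The absence of a match says only that these letters do not occur in these windows.

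Il12a gave 24.5, 22.9 and 41 in wild type and 132, 135 and 67.6 in cells labelled Aire-deficient, in the order of the array numbers used throughout. All 3 Aire-deficient arrays lay above all 3 wild-type arrays, and array 3 was the highest of its group in wild type and the lowest in cells labelled Aire-deficient. The geometric mean went from 28.4 (SD 0.46 on the log2 scale, n = 3) to 106 (SD 0.57, n = 3), or 3.74-fold. The log2 difference was 1.90 ± 0.38 (SE), with a limma adjusted p of 0.0365, or 0.0112 with the block. Between arrays of the same number the log2 difference was 2.43, 2.56 and 0.72.

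Leaving out single arrays ended the call of Il12a in 5 of 6 fits. Its adjusted p was 0.0866, 0.0915 and 0.063 without wild-type array 1, 2 and 3 in turn. Leaving out the Aire-deficient arrays 1, 2 and 3 gave 0.0973, 0.178 and 0.0438. The log2 difference in these 6 fits was 1.73 to 2.23.

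Il12b, the p40 chain, stood the other way. It gave 9.75, 18.7 and 9.63 in wild type and 3.05, 2.6 and 2.18 in cells labelled Aire-deficient. Every Aire-deficient array lay under the dim limit and every wild-type array above it, so the gene passed the filter through wild type alone. Its geometric means were 12.1 (SD 0.55, n = 3) and 2.59 (SD 0.24, n = 3), at least 2.18-fold apart when the wild-type mean is set against the dim limit. The log2 difference was -2.22 ± 0.49 (SE, adjusted p = 0.0535 in limma, or 0.0298 with the block), and it was -1.12 with a floor at the 40th percentile, because the Aire-deficient signals were raised to it.

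Ebi3 gave 66.5, 80.9 and 68.6 in wild type and 80.8, 63.3 and 64.7 in cells labelled Aire-deficient, and these ranges overlapped (adjusted p = 0.95 in limma).

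The receptor chains of interleukin 12 were too dim to be tested. Il12rb1, the chain that interleukin 12 and interleukin 23 share, gave 2.08, 1.8 and 7.32 in wild type and 2.37, 1.8 and 10.3 in cells labelled Aire-deficient. Il12rb2, the signalling chain of the interleukin 12 receptor, lay under the dim limit on all 6 arrays and at the floor on the Aire-deficient arrays. Il27ra, the receptor of the related interleukin 27, was bright enough, with 11, 16.6 and 20.1 in wild type and 20.4, 21.4 and 17.1 in cells labelled Aire-deficient, and the groups overlapped (log2 difference 0.34 ± 0.33).

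Il15 and its own receptor chain were both higher without overlap between the groups. The ligand supports natural killer cells and memory T cells and is presented to them by neighbouring cells on the receptor chain Il15ra. Il15 gave 6.82, 6.9 and 8.48 in wild type and 17.9, 18.9 and 25.7 in cells labelled Aire-deficient, a step of 2.80-fold with little spread inside either group (SD 0.18 and 0.28, n = 3 each). The log2 difference was 1.48 ± 0.33 (limma adjusted p = 0.0535, or 0.0224 with the block). It was 1.40, 1.46 and 1.6 between same-number arrays.

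For Il15ra the signals were 32.5, 33.3 and 36.7 in wild type and 59.9, 78.5 and 50.4 in cells labelled Aire-deficient. Its log2 difference of 0.86 ± 0.30 did not pass (adjusted p = 0.208 in limma, or 0.0928 with the block). Il2ra, the private chain of the interleukin 2 receptor and a marker of activated and regulatory T cells, is the direct neighbour of Il15ra in the RefSeq gene order, with 0 coding genes between them. It gave 6.52, 6.59 and 3.77 in wild type and 5.93, 4.35 and 2.88 in cells labelled Aire-deficient, near the dim limit and overlapping.

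None of the other members of the common gamma chain family passed in either fit. Il7 lay under the dim limit in wild type (4.25, 4.82 and 4.45) and just above it in cells labelled Aire-deficient (6.32, 7.38 and 6.6), so it passed the filter through the latter group alone. The groups did not overlap, but the log2 difference was 0.59 ± 0.45 (adjusted p = 0.59 in limma, 0.558 with the block). Il7r, which carries the interleukin 7 signal and is found on thymocytes and T cells, showed no step, at 29, 17.1 and 17.9 against 26.2, 18.7 and 18.6. Il4ra, through which interleukin 4 and interleukin 13 signal, gave 38.1, 39.7 and 81.9 in wild type and 35.1, 93.8 and 96.5 in cells labelled Aire-deficient, with array 1 the lowest of both groups. Its second probe set was under the dim limit throughout. Il2 was at the floor on all 6 arrays. Il9r, the receptor of interleukin 9, was under the dim limit on all of them, and Il2rb, the chain that interleukin 2 and interleukin 15 share, exceeded it on 1 array only, Aire-deficient array 1, at 7.73.

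Interleukin 13 binds both a signalling and a decoy chain. Il13ra1, which pairs with Il4ra, gave 37.2, 20.2 and 35.2 in wild type and 51.2, 49.7 and 52.6 in cells labelled Aire-deficient. The Aire-deficient arrays were nearly level and lay above all wild-type arrays, with wild-type array 2 the lowest. The log2 difference was 0.78 ± 0.33 and did not pass (adjusted p = 0.292 in limma, 0.141 with the block). Il13ra2, a decoy receptor of interleukin 13, gave 14.4, 15.4 and 6.2 against 36.8, 15.3 and 15.8, and the groups overlapped.

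**Figure D1:**
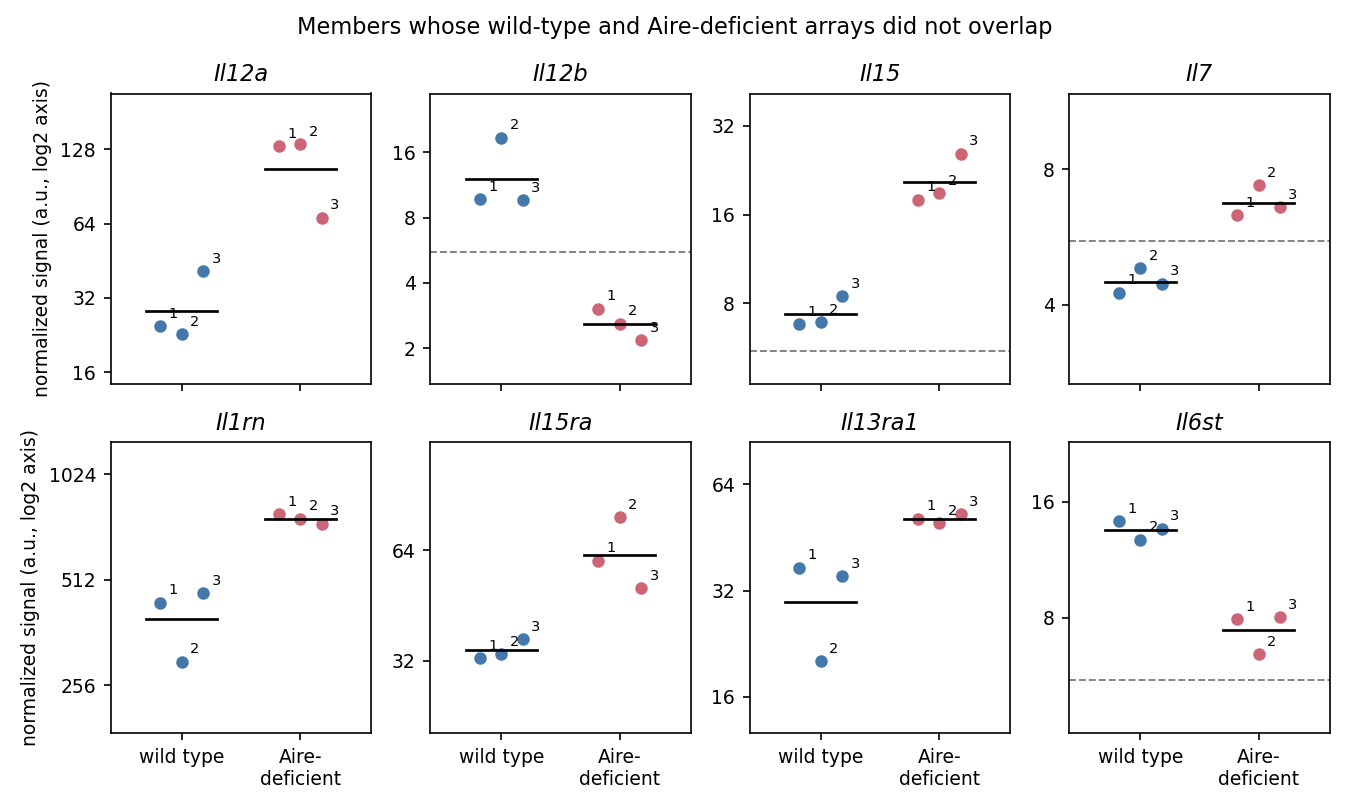
Normalized signal in arbitrary units, on a log2 axis, of the 8 members whose groups did not overlap. Points are arrays marked with their number, bars are geometric means (n = 3) and the dashed line is the dim limit of 5.53. Il12b and Il6st are lower in cells labelled Aire-deficient and the other 6 are higher.

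Of all tested genes, 10.6% were higher and 10.7% were lower without overlap between the groups. By the same measure 3 of 6 ligands (Il12a, Il15 and Il7) were higher and 1 was lower (Il12b), 2 of 15 receptors were higher (Il15ra and Il13ra1) and 1 was lower (Il6st), and 1 of 3 inhibitors was higher (Il1rn). Receptors without overlap were thus near the share of all genes, so this count is no result about receptors. The ligands that passed the filter include Il12b and Il7, which passed through 1 group only, and such genes differ by construction.

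In the interleukin 1 family, 1 inhibitor passed in the blocked fit. Il1rn, which encodes the antagonist that occupies the interleukin 1 receptor without signalling, gave 441, 299 and 470 in wild type and 789, 764 and 740 in cells labelled Aire-deficient. The groups did not overlap, and the Aire-deficient arrays lay close together (SD 0.05 on the log2 scale, against 0.35 in wild type). The step was 1.93-fold, a log2 difference of 0.95 ± 0.25 (limma adjusted p = 0.0857, or 0.0295 with the block). Wild-type array 2, which had the strongest 3' bias, was the lowest, and without it the log2 difference was 0.75 with a limma adjusted p of 0.119. Leaving out any other single array gave log2 differences of 0.93 to 1.07 and limma adjusted p of 0.113 to 0.299.

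The agonists Il1a and Il1b, direct neighbours in the gene order, were too dim to be tested. Il1a gave 4.07, 9.47 and 8.08 in wild type and 3.05, 5.53 and 3.08 in cells labelled Aire-deficient, lower in each of the 3 same-number pairs. Il1b lay under the dim limit on all 6 arrays. Il18, an agonist released from epithelial cells and macrophages, was at the floor on 3 arrays and gave 6.12 on wild-type array 1 and 11.4 and 6.2 on Aire-deficient arrays 1 and 2. Il18bp, a secreted protein that binds and neutralises interleukin 18, gave 9.02, 13.6 and 21.6 in wild type and 13, 14.3 and 11.1 in cells labelled Aire-deficient, with no step. Il1f5, the antagonist of the interleukin 36 receptor known from skin, lies 1 coding gene from Il1rn. It gave 14.8, 10.5 and 4.85 in wild type and 10.2, 4.25 and 1.8 in cells labelled Aire-deficient. It was lower in all 3 same-number pairs, but the groups overlapped and the log2 difference of -1.09 ± 0.68 did not pass (adjusted p = 0.491 in limma, 0.217 with the block).

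The receptor chains of this family are encoded side by side. Il1r2 and Il1r1 are direct neighbours, 2 other coding genes follow, and then come Il18r1 and Il18rap. Il1r2, the decoy receptor of interleukin 1, gave 53.6, 101 and 132 in wild type and 131, 156 and 133 in cells labelled Aire-deficient. Its second probe set gave 25.7, 35.9 and 27.3 in wild type and 48.5, 41.3 and 40.2 in cells labelled Aire-deficient, so that the groups did not overlap there. The log2 differences of these probe sets were 0.64 ± 0.35 and 0.56, and neither passed (unadjusted p = 0.0993 for the first, and 0.0892 for the second with every probe set fitted on its own). Il1r1, the signalling receptor, gave 25.2, 35.7 and 37.2 against 35.2, 91.5 and 51.2 (log2 difference 0.77 ± 0.39, adjusted p = 0.388 in limma).

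Il18r1, the binding chain of the interleukin 18 receptor, gave 45.8, 158 and 51 in wild type and 60.6, 77.4 and 64.9 in cells labelled Aire-deficient. Wild-type array 2 stood above the rest, and with it the log2 difference was -0.09, while without it the value turned to 0.48. Its partner chain Il18rap exceeded the dim limit on 1 array, Aire-deficient array 2, at 6.2. Il1rap, the accessory chain that Il1r1 needs for signalling, lay under the dim limit on all 6 arrays.

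Il6st encodes gp130, the receptor chain that the interleukin 6 family shares, and gave 14.3, 12.8 and 13.6 in wild type and 7.93, 6.43 and 8.03 in cells labelled Aire-deficient, without overlap and with a narrow spread in both groups (SD 0.08 and 0.18 on the log2 scale). The log2 difference was -0.87 ± 0.34 and did not pass (limma adjusted p = 0.257, or 0.182 with the block). A second Il6st probe set was above the dim limit on 1 array only and differed by -0.80, with overlap. Il6ra, the binding chain for interleukin 6, gave 8.83, 20.3 and 10.5 against 12, 16.1 and 10.7, with no step. The ligands Il6 and Il11 were too dim to be tested, and Il6 exceeded the dim limit on Aire-deficient array 3 alone, at 7.32.

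Members of the interleukin 10 and interleukin 17 families showed no step beyond the spread of the arrays. Il10, an inhibitory cytokine, gave 32.5, 15.1 and 15.4 in wild type and 42.7, 13.7 and 14 in cells labelled Aire-deficient, so that array 1 was the highest of both groups. A control probe set for Il10, which was not normalized, gave deposited signals of 4.6, 0.7 and 0.7 and of 7.8, 1 and 2, with array 1 again the highest. Il10ra, the binding chain found mainly on leukocytes, gave 1.92, 2.8 and 8.83 against 1.8, 11.7 and 20. Il10rb, a chain shared by several cytokines of this family, gave 279, 233 and 157 in wild type and 138, 154 and 176 in cells labelled Aire-deficient (log2 difference -0.48 ± 0.29, adjusted p = 0.477 in limma). Il17ra, the main receptor chain for interleukin 17, gave 35.9, 37.4 and 53.5 against 40.8, 61.1 and 62.2, higher in each same-number pair but overlapping, and its second probe set gave 9.47, 5.75 and 12.5 against 9.63, 12.8 and 18.3. Il17a and Il17d, a product of T cells and a related ligand, were under the dim limit on all arrays.

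The remaining members were dim. Il5ra, a receptor chain of eosinophils, was under the dim limit throughout. Il3ra, which binds interleukin 3, exceeded it on Aire-deficient array 2 only, at 7.83. Il16, a ligand of CD4, exceeded it on Aire-deficient array 3 only, at 8.1.

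**Figure D2:**
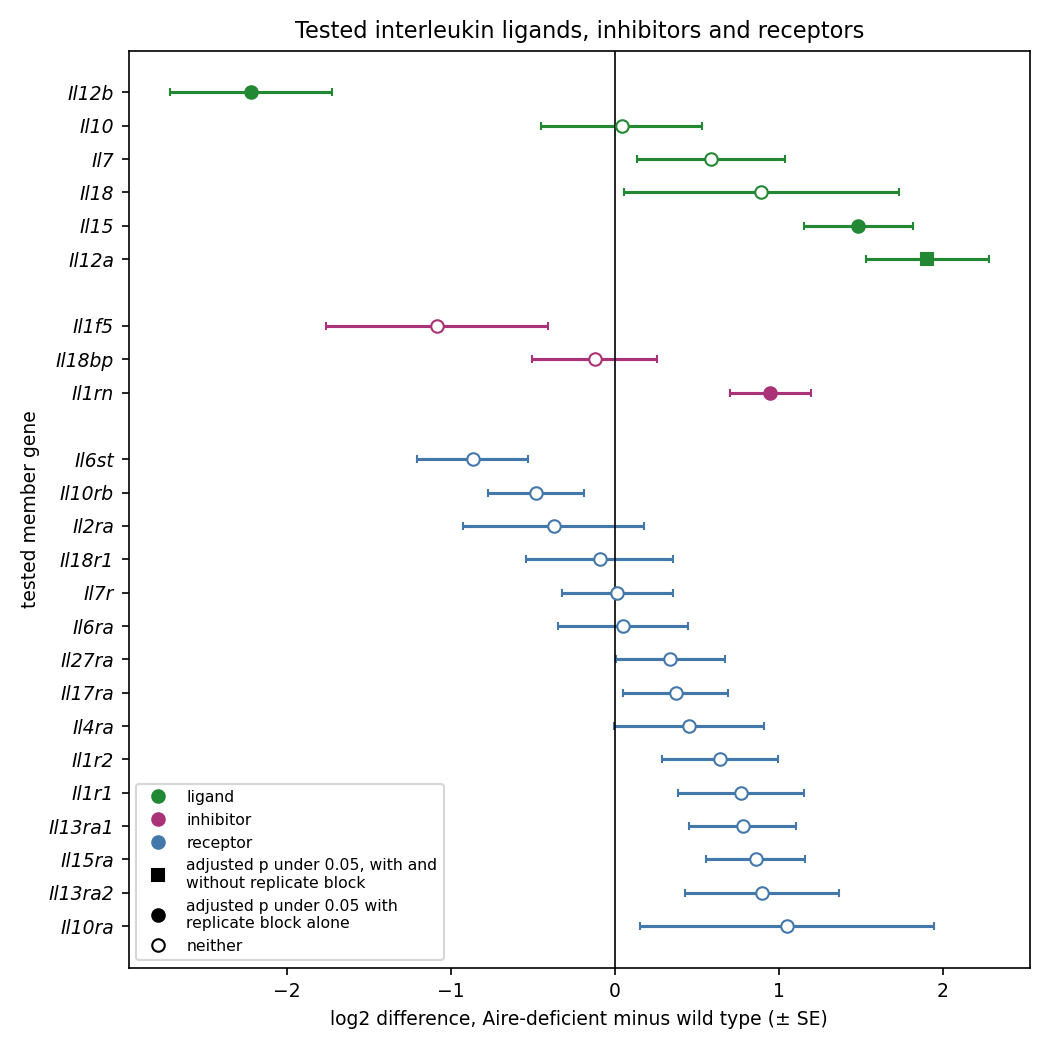
The log2 difference (Aire-deficient minus wild type, ± SE) of the 24 tested members, grouped as ligands, inhibitors and receptors. Il12a passed the threshold without and with the replicate block (square), Il12b, Il15 and Il1rn with the block alone (filled circles), and the other 20 with neither (open circles).

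Taken by class, the 6 tested ligands ranged from -2.22 to 1.90 on the log2 scale, with a median of 0.74 and 5 of 6 above 0. Among them, Il12b and Il7 passed the filter through 1 group only, and Il18 was at the floor on 3 arrays. The 15 tested receptors ranged from -0.87 to 1.05, with a median of 0.37 and 11 of 15 above 0. The median over all 5950 tested genes was 0.05, and 3150 of them were above 0. Over all 14 ligands and all 23 receptors, dim ones included, the medians were 0.38 and 0.32, against 0.01 for the 8251 genes. On the values as deposited, the median of all genes rose to 0.18 and that of the receptors to 0.65, while that of 8 ligands was 0.42. These medians describe the classes and were not tested.

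Genes outside the group that act in the same pathways gave no call without the block. Of 21 tested genes of JAK-STAT signalling and its SOCS inhibitors, through which most interleukin receptors act, 0 passed without the block (5 at an unadjusted p under 0.05, beside 15.1% of all genes), and 1 fell with it, beside 3.70% of all genes. The gene was Socs2, an inhibitor of cytokine receptor signalling, with 146, 124 and 110 in wild type and 34.3, 62.3 and 56.6 in cells labelled Aire-deficient (limma adjusted p = 0.0661, or 0.0218 with the block). Of 22 tested genes of interleukin 1, interleukin 17 and NF-kB signalling, 0 passed without the block (2 at an unadjusted p under 0.05) and 1 rose with it, beside 2.59% of all genes. These single calls are near the share of all genes and are no result about the lists. It was Casp1, the protease that activates interleukin 1 beta and interleukin 18, with 111, 40.1 and 63.9 against 244, 128 and 106 (limma adjusted p = 0.226, or 0.0256 with the block). The groups of Casp1 overlapped, with wild-type array 1 above Aire-deficient array 3.

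Of 12 tested cytokines of related classes that are not named as interleukins, 1 rose with the block, beside 2.59% of all genes. It was Kitl, the ligand of the Kit receptor, from 19.2, 11 and 19.6 to 50, 37.5 and 37.2 (limma adjusted p = 0.0771, or 0.0218 with the block). This single call is no result about the list. Of 13 tested receptors of these classes, 0 passed in either limma fit, and 6 lay at an unadjusted p under 0.05, beside 15.1% of all genes. The medians of these 4 lists, in the order given, were 0.17, 0.23, 0.08 and 0.14 on the log2 scale. Among those receptors Kit gave 14.3, 15 and 18.8 against 28, 24.3 and 33.2, and Osmr, which pairs with gp130 to bind oncostatin M, gave 20.8, 28.3 and 16.9 against 9.53, 12.3 and 13.7.

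Since interleukins are best known from leukocytes, the markers of those cells were read on the same arrays. Ptprc, which encodes CD45, gave 5.15, 7.22 and 5.33 in wild type and 7.93, 7.83 and 10.3 in cells labelled Aire-deficient, without overlap (adjusted p = 0.558 in limma). Of 9 tested genes of leukocytes in general, 1 rose with the block, beside 2.59% of all tested genes. It was the surface peptide Cd52 (81.4, 168 and 96.7 against 260.3, 274 and 152), and a single call is no result about the list. The summed signal of 16 T cell markers was 101 to 178 in wild type and 114 to 174 in cells labelled Aire-deficient, with Cd3e, Ptcra and Rag2 under the dim limit on all arrays. That of 16 macrophage and dendritic cell markers was 348 to 453 and 296 to 345, with Itgam under the dim limit on all arrays. Cd14 and Lyz2 had the highest signals on every array, so this sum says little about the other markers. The log2 differences of the 13 tested genes were above 0 for 7 and below 0 for 6, with a median of 0.45. Of 13 tested genes of this list, 1 fell with the block, beside 3.70% of all tested genes, namely Cd14 (168, 207 and 92.2 against 68.3, 43.9 and 32.3). Cd68 (7.93, 4.15 and 9.75 against 24.7, 20.8 and 19.2) and Fcer1g (1.8, 1.8 and 4.97 against 10.8, 7.73 and 16.8) rose with the block, beside 2.59% of all tested genes. Fcer1g lay under the dim limit on all wild-type arrays and above it on all Aire-deficient ones. It passed the filter through 1 group only and had to differ, so its call is no support. For 8 B cell markers the sums were 72.8 to 118 and 124 to 150, and the median log2 difference was 0.12. Blk was the brightest of them on every Aire-deficient array, so the sums say little about the other markers. Of 5 tested, 2 rose with the block, beside 2.59% of all tested genes. They were Pax5 (7.93, 1.8 and 1.8 against 17.5, 10.2 and 13) and Blk (13.6, 49.1 and 27.1 against 41, 81.5 and 80.7). Pax5 was at the floor on wild-type arrays 2 and 3. It passed the filter only with the Aire-deficient arrays, where it is high, so its call is no support. The groups of Blk overlapped, and a single call is no result about the list. Ms4a1 was the 1 of 5 tested below 0 on the log2 scale (-0.59). For 8 mast cell markers the sums were 306 to 562 and 626 to 749, most of it the signal of Hdc. Cpa3, Mcpt4 and Ms4a2 lay under the dim limit on all arrays. The part of these markers in the differences of Il12a, Il12b, Il15 and Il1rn was not tested.

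The calls of these 4 members were also read under other settings. Il12b is listed with them, but it passed the filter through wild type alone, so its calls are no support. Each of the 4 passed on the values as deposited, whereas none passed without a filter on dim signals, with a term for 3' bias, or with the block but without both arrays numbered 2. In the last of these fits the adjusted p was 0.068 for Il12a, 0.193 for Il12b, 0.0644 for Il15 and 0.107 for Il1rn. Their log2 differences there were 1.58, -1.91, 1.5 and 0.75, beside 1.90, -2.22, 1.48 and 0.95 with all arrays.

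**Figure D3:**
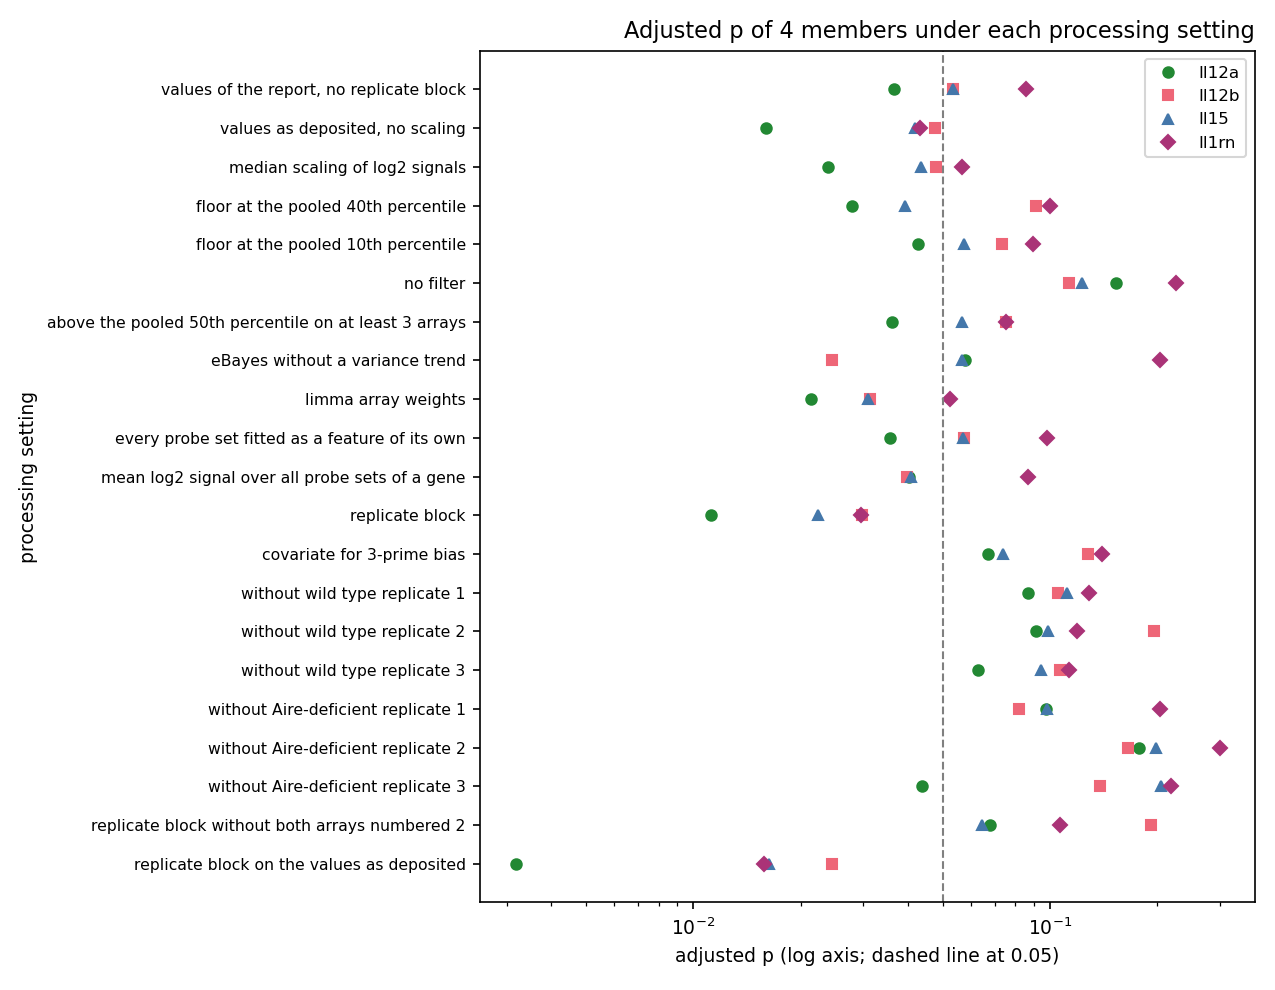
Adjusted p (log axis) of Il12a, Il12b, Il15 and Il1rn under each processing setting, with the threshold of 0.05 as a dashed line. For Il12a, Il15 and Il1rn the value is lowest with the replicate block on the values as deposited (0.00318, 0.0164 and 0.0158), and Il12a stays under the threshold in 1 of the 6 fits that leave out an array.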

How the data were processed

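Each probe set has a deposited signal intensity on a linear scale. The authors' background correction, array scaling and software were not given in the sources used here. RNA was amplified in 2 rounds, per the labels. Of 12488 probe sets, 66 controls were left out. Of the other 12422, 10833 had 1 gene in the platform annotation, 396 several and 1193 none. By Entrez identifier 10817 matched RefSeq genes (GRCm38.p6), used for names and gene order; promoter stretches come from RefSeq's table.

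Arrays were quantile normalized, floored at the pooled 20th percentile (1.8) and log2 transformed. The probe set with the highest mean stood for a gene. The 5950 genes whose signal exceeded 5.53 (40th percentile over all arrays) on 3 or more arrays were tested with limma 3.58.1 in R 4.3.3 (lmFit, eBayes with trend, 2-sided), Benjamini-Hochberg adjusted, threshold 0.05. The fit was tested on simulated data. Figures used matplotlib 3.10.9. The number of arrays limits the precision.

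Replicate numbers were checked for pairing: for same-number arrays, the correlation of deviations from the group means was 0.38, 0.21 and 0.19, and for all others -0.26 to 0.075. All same-number values exceeded 0.1, so the blocked value is given beside results. What a number marks is not stated in the labels, and the pairing comes from this correlation.

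Members, lists, classes and tests were chosen with earlier results of these data known. By the naming rule every member was accounted for, with full statistics where it was called with or without the block, where its groups did not overlap and differed at least 2-fold, or where its probe sets had opposite signs (0 genes). From pathway lists it took called genes, else the 2 with the smallest p. Statistics of other members, and of Ebi3 and the marker genes, were added after their values were seen.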

Additional observations from a re-analysis of the deposited data

How the results depend on the processing

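Across 20 alternatives, Il12a, Il12b, Il15 and Il1rn kept their direction in each. In the main fit Il12b passed the filter through wild type alone, where it is high, so its direction and its calls are no support. Il12a was called in 11 of them (adjusted p 0.00318 to 0.178), Il12b in 7 (0.0244 to 0.196), Il15 in 7 (0.0164 to 0.205) and Il1rn in 3 (0.0158 to 0.299). Receptors were called in 0 of them in either direction. Higher and lower ligands numbered 2 and 1 on the values as deposited, after median scaling, with array weights, with the mean over probe sets and with the replicate block (also on the values as deposited), against 1 and 0. With the floor raised to the 40th percentile they numbered 2 and 0, and 0 and 1 without a variance trend. No ligand was called without a filter, with the 3' bias term, or with the block without both arrays numbered 2; the last was added after seeing the data, as was the block on deposited values. With 1 array left out, higher ligands numbered 0 to 1.

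Over all genes the main fit called 23 higher and 79 lower. Counts that moved by over 1.5 times were, for higher genes, 11 without a variance trend, 46 with the higher floor, 67 with array weights, 57 after median scaling, 63 on deposited values, 4 without a filter, 154 with the replicate block, 219 with the block on deposited values and 43 with the block without arrays numbered 2; for lower genes, 139 with array weights, 12 without a filter, 220 with the replicate block and 178 with the block on deposited values. With 1 array left out, higher genes numbered 1 to 11 and lower genes 13 to 53. On deposited values 80 genes were lower.

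Values near 0 turned sign. Il18r1 was 0.17 on deposited values (also with the block) and after median scaling, 0.28 with array weights, 0.52 with the 3' bias term and 0.38 with the block without arrays numbered 2. Il10 was -0.16 with array weights and -0.49 with the bias term. Il7r was -0.033, -0.28 and -0.043 with weights, the bias term and the block without arrays numbered 2. With 1 array left out, Il18r1 ranged from -0.42 to 0.48, Il10 from -0.50 to 0.41, Il7r from -0.15 to 0.26, Il6ra from -0.19 to 0.41 and Il18bp from -0.43 to 0.20. The cause was not tested.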
